A study of Rattus norvegicus with 4 samples.

Results

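The genes described here are 6 gene symbols that make and break down proline: Aldh18a1, its near copy AC096370.2, Pycr1, Oat, Prodh and Aldh4a1. They were chosen by name with the response of these same libraries already known. Of the 6, 5 have a row among the 32545 genes of the deposited count table, and no row carries the name Aldh4a1. The cells were S16, an established rat Schwann cell line, grown in DMEM with high glucose and glutamine and no pyruvate. In the knockdown group, 2 libraries called Nr2f siRNA A and B, the cells received siRNAs against Nr2f1 and Nr2f2, which encode the nuclear receptors COUP-TFI and COUP-TFII. In the 2 control libraries, control siRNA A and B, they received a negative control siRNA. Both groups went through the same transfection and poly-A selection. The labels name neither the time after transfection nor separate cultures, so a p-value here reflects no more than library-to-library spread, part of which may be technical.

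Proline is built from glutamate or from ornithine, and both routes meet at pyrroline-5-carboxylate, abbreviated P5C. The protein of Aldh18a1, P5C synthase, turns glutamate into P5C in the mitochondrion, Oat makes P5C from ornithine, and the Pycr enzymes reduce P5C to proline. Breakdown runs the other way: Prodh oxidises proline to P5C and Aldh4a1 oxidises P5C to glutamate. Schwann cells lay down collagen and a basement membrane, and collagen is rich in proline and hydroxyproline.

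Aldh18a1 and AC096370.2 were far lower in the Nr2f siRNA libraries than in the control siRNA libraries, Oat was slightly lower, and the groups overlapped for Pycr1. Levels are CPM, counts scaled to library size with TMM factors, and a gene is called when the p of edgeR's quasi-likelihood test, adjusted by Benjamini-Hochberg over the 13018 tested genes, is under 0.05. Of the 5 rows, 4 passed the filter on low counts and Prodh did not. Of those 4, 3 were called lower, against 10.0% of all tested genes. None of the 4 was called higher by edgeR or DESeq2 or was higher at an unadjusted p under 0.05; over all tested genes 8.05% were called higher. The same 3 had all Nr2f siRNA values below all control siRNA values, as did 28.5% of all tested genes, and 58.6% showed no overlap in either direction. These genes were chosen from this contrast, so their differences are given as a description with no p-value, and nothing is read from the counts.

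**Figure D1:**
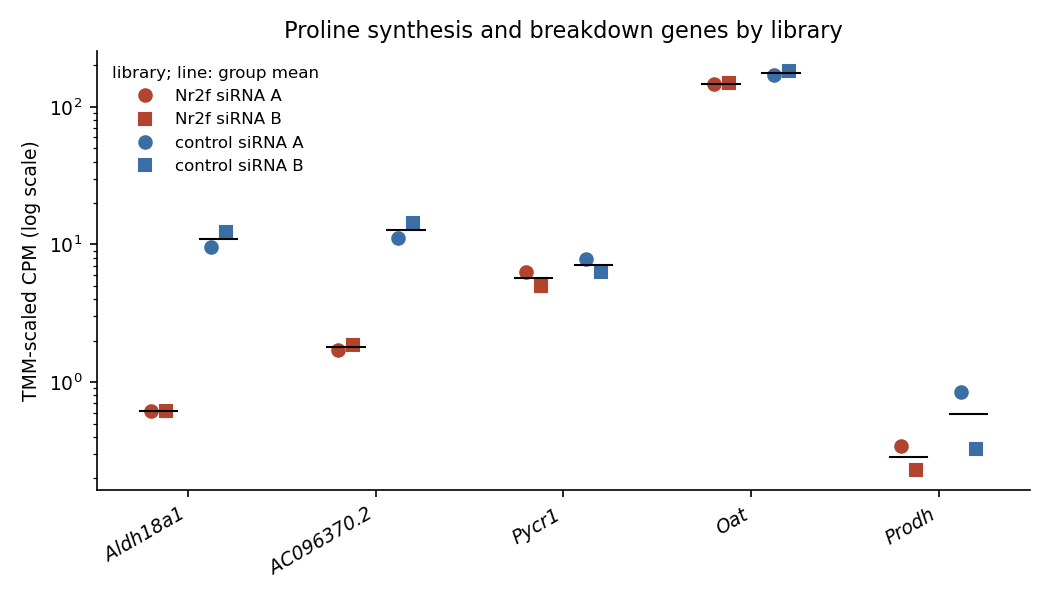
TMM-scaled CPM on a log axis for the 5 rows, with Nr2f siRNA libraries in red to the left of control siRNA libraries in blue; circles are libraries A, squares are libraries B and lines are group means (n = 2 each). Aldh18a1 and AC096370.2 are separated by the widest gap, Oat by a narrow one, and the Pycr1 groups overlap.

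Depth was 25618234 and 43057750 counts in Nr2f siRNA libraries A and B, against 26561522 and 21556011 in control siRNA libraries A and B. The fit called 2350 genes (18.1%), 1048 higher and 1302 lower; with library-size scaling the split was 1381 higher and 1012 lower. Without Nr2f siRNA B 601 were higher and 736 lower, and without control siRNA A 691 were higher and 1008 lower. Nr2f1 had 61.4 and 56.0 CPM in Nr2f siRNA libraries, against 225.4 and 208.1 CPM in control siRNA libraries. Nr2f2 had 68.1 and 72.6 CPM in Nr2f siRNA libraries, against 295.6 and 281.8 CPM in control siRNA libraries, so both targets were lower in the labelled knockdown. Of 9 Schwann cell markers with a row all 9 were tested, among them Sox10 at 759.6 and 686.0 CPM in Nr2f siRNA libraries against 689.5 and 713.0 CPM in control siRNA libraries. One Schwann marker, Pmp22, rose (log2 fold change 0.32). The leukocyte markers Ptprc and Adgre1 and the endothelial markers Cdh5, Kdr and Cldn5 had no read in any library, nor did the fibroblast markers Lum and Dcn or the melanocyte marker Mlana. The summed level of the 6 macrophage markers was 1.65 and 1.67 CPM in Nr2f siRNA libraries, against 1.55 and 1.83 CPM in control siRNA libraries. The 5 endothelial markers with a row summed to 15.5 and 17.2 CPM in Nr2f siRNA libraries and 13.1 and 13.5 CPM in control siRNA libraries. Of these, Vwf was called higher, whereas Tek, the other one tested, went the other way. Tek had 3.68 and 4.47 CPM in Nr2f siRNA libraries against 5.25 and 6.09 CPM in control siRNA libraries. The groups did not overlap for Tek, but it was not called by edgeR (log2 fold change -0.44, adjusted p = 0.166). The 6 fibroblast markers, which include Col1a1, summed to 13392 and 13304 CPM in Nr2f siRNA libraries and 13494 and 13084 CPM in control siRNA libraries. Col1a1 makes up most of that sum, and members beneath it differed. Pdgfra had 3.22 and 3.15 CPM in Nr2f siRNA libraries against 1.39 and 2.11 CPM in control siRNA libraries (log2 fold change 0.88, adjusted p = 0.0505). Col3a1 had 1753 and 1722 CPM in Nr2f siRNA libraries against 1484 and 1547 CPM in control siRNA libraries (0.20, adjusted p = 0.0611; DESeq2 called it higher). Twist2, too low to be tested, had 0.345 and 0.411 CPM in Nr2f siRNA libraries against 0.0773 and 0.281 CPM in control siRNA libraries. The 6 melanocyte markers summed to 55.4 and 53.5 CPM in Nr2f siRNA libraries and 63.2 and 56.7 CPM in control siRNA libraries, with Dct and Mitf called higher and Pmel called lower. Without Nr2f siRNA B the calls of Pmp22 (adjusted p = 0.0726), Vwf (0.0591), Mitf (0.337) and Pmel (0.216) were lost; Mitf was also lost without control siRNA A (0.0998) or control siRNA B (0.0782), and Pmel without control siRNA A (0.162). The part of these marker shifts in the results was not tested. In bulk RNA, fewer cells of a kind and less RNA per cell cannot be told apart.

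Aldh18a1 (ENSRNOG00000015267) is a protein-coding gene on the minus strand at chr1:259057402-259089642, in the coordinates of the deposited table, whose genome build the sources used here do not name. It had 16 and 27 reads in Nr2f siRNA libraries A and B, against 249 and 264 reads in control siRNA libraries A and B. In scaled terms this was 0.613 and 0.616 CPM in Nr2f siRNA libraries, against 9.62 and 12.4 CPM in control siRNA libraries. The knockdown libraries were nearly equal to each other and neither came near a control library. The log2 fold change was -4.14 (SE 0.27, 95% interval -4.73 to -3.55), which is 5.67% of the control siRNA level. Of the 13018 tested genes, 3 had a log2 fold change this low, Aldh18a1 included. The authors' deposited table lists a log2 fold change of -4.17 for the same comparison.

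AC096370.2 (ENSRNOG00000060047) lies on the same strand at chr1:259641676-259674425, 552.0 kb further along. Its annotated transcript length of 3389 bases differs by 86 bases from the 3475 bases of Aldh18a1, and 7 genes are listed between them. It had 45 and 82 reads in Nr2f siRNA libraries, against 289 and 306 reads in control siRNA libraries. The levels were 1.72 and 1.87 CPM in Nr2f siRNA libraries, against 11.2 and 14.3 CPM in control siRNA libraries. The copy followed the same order of groups, with a smaller gap than Aldh18a1. Its log2 fold change was -2.80 (SE 0.22, 95% interval -3.27 to -2.33), or 14.4% of the control siRNA level, and the authors' deposited table lists -2.83.

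Each copy also holds an entry for the microRNA hairpin rno-mir-6317-1 on the same strand, 8841 bases from the start of Aldh18a1 and 8831 bases from the start of AC096370.2. Neither hairpin entry received a read. Its sequence is shown because the 2 annotated hosts share this internal landmark; it is from RefSeq, build GRCr8, chr1:249348422-249348442 on the minus strand, with the seed, bases 2 to 8, in capitals.
rno-miR-6317: gUGAACCUgagagaaaggcuc
RefSeq's GRCr8 annotation lists Aldh18a1 once. There it is followed by Tctn3 and Entpd1. In the deposited order AC096370.2 is the copy nearer to Entpd1, with AC096370.3 between them. Aldh18a1 lies beside LOC100912537, annotated as tectonic-3-like and of the same annotated length as AC096370.3, 1785 bases.

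How reads that match both copies were handled is not stated in any source used here, which leaves the split between the rows uncertain, and the sum was fitted as well. Together the rows had 61 and 109 reads in Nr2f siRNA libraries, against 538 and 570 reads in control siRNA libraries. The summed level averaged 2.41 ± 0.107 CPM in Nr2f siRNA libraries and 23.7 ± 4.19 CPM in control siRNA libraries (SD, n = 2 each). The sum separated the groups as each row did. The log2 fold change of the sum was -3.28 (SE 0.18, 95% interval -3.68 to -2.88), a level 9.72-fold lower. The knockdown libraries thus held 10.3% of the control siRNA level, with a 95% interval of 7.80 to 13.6%.

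The division of reads between the copies also differed between the groups. Aldh18a1 took 26.2% of the pair's reads (exact Clopper-Pearson 95% interval 15.8 to 39.1%) in Nr2f siRNA library A and 24.8% (17.0 to 34.0%) in Nr2f siRNA library B. In control siRNA libraries A and B it took 46.3% (42.0 to 50.6%) and 46.3% (42.2 to 50.5%). The intervals of the knockdown libraries lie below those of the control libraries; they cover counting error only, and reads are not independent molecules. Whether the copies differ in transcription or the mapping divides the reads was not tested.

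**Figure D2:**
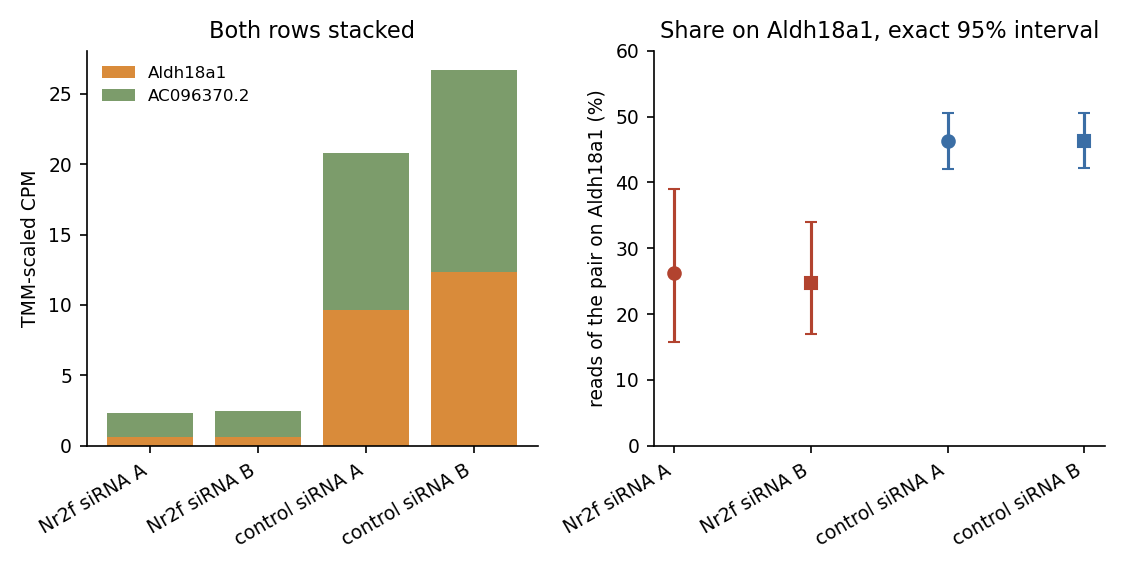
Left, TMM-scaled CPM of Aldh18a1 and AC096370.2 stacked for each library, Nr2f siRNA libraries first; right, the percentage of the pair's reads on Aldh18a1, with exact Clopper-Pearson 95% intervals. The stacks reach 2.34 and 2.49 CPM in Nr2f siRNA libraries against 20.8 and 26.7 CPM in control siRNA libraries, and the share on Aldh18a1 is lower in both Nr2f siRNA libraries.

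Oat (ENSRNOG00000016807, minus strand, chr1:204562289-204582070) encodes ornithine aminotransferase, which converts ornithine and P5C into each other. It was the most abundant of the 5 rows per length, with 66.9 and 68.4 FPKM in Nr2f siRNA libraries against 78.5 and 84.3 FPKM in control siRNA libraries in the authors' length-scaled values. In scaled counts it had 145.6 and 148.8 CPM in Nr2f siRNA libraries, against 169.9 and 183.1 CPM in control siRNA libraries. The groups did not overlap. The log2 fold change was -0.26 (SE 0.08, 95% interval -0.43 to -0.10), or 83.4% of the control siRNA level, and the authors' deposited table lists -0.27. The call is not stable: it was lost with library-size scaling (-0.21) and upper-quartile scaling (-0.23), and without Nr2f siRNA A (-0.25), Nr2f siRNA B (-0.28) or control siRNA B (-0.21).

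Pycr1 (ENSRNOG00000036682, minus strand, chr10:109818177-109821807) encodes a mitochondrial reductase that makes proline from P5C. It had 166 and 220 reads in Nr2f siRNA libraries, against 202 and 135 reads in control siRNA libraries. The levels were 6.36 and 5.02 CPM in Nr2f siRNA libraries, against 7.80 and 6.33 CPM in control siRNA libraries. Nr2f siRNA library A lay just above control siRNA library B, so the groups overlapped. The log2 fold change was -0.35 (SE 0.20) with a 95% interval of -0.78 to 0.08, and the gene was not called; the authors' deposited table lists -0.33.

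The windows around the RefSeq starts of the Pycr1 and Oat genes are shown to set the member that overlapped beside the one called lower. Nr2f proteins are nuclear receptors, and the hexamer AGGTCA is the classic half-site of that family. Of the 6 members, Pycr1, Oat and Aldh4a1 are in the RefSeq promoter table (build GRCr8). The Pycr1 window is chr10:106420763-106421062 and the Oat window is chr1:196797705-196798004, both on the minus strand and given from 250 bases before the start to 50 bases after it, with the bases after the start in capitals.
Pycr1: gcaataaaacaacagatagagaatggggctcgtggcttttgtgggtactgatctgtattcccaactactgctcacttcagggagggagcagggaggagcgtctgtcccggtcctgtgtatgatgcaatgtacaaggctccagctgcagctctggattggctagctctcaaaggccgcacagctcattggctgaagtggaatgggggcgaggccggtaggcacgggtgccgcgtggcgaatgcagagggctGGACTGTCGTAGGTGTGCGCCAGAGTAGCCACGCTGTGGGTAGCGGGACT
Oat: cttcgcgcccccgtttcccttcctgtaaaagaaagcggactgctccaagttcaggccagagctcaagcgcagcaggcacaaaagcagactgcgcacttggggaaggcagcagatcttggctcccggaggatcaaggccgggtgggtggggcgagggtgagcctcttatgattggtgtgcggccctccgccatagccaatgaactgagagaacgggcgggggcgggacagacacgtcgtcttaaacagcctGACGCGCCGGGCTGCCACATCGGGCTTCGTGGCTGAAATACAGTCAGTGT
Neither window holds AGGTCA on either strand, whereas 16.2% of 33469 RefSeq promoter windows of the same length do. This says only that these letters are not in these windows. Their GC content was 58% for Pycr1 and 61% for Oat.

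Prodh (ENSRNOG00000000281, plus strand, chr11:87058616-87075785) encodes proline dehydrogenase, the first enzyme of breakdown. It was barely expressed, with 9 and 10 reads in Nr2f siRNA libraries against 22 and 7 reads in control siRNA libraries, and it was not tested. The levels were 0.345 and 0.228 CPM in Nr2f siRNA libraries, against 0.850 and 0.328 CPM in control siRNA libraries. Control siRNA library A stood above the other 3, and control siRNA library B lay within the range of the Nr2f siRNA libraries. The ratio of summed reads per depth was 0.459 (exact 95% interval 0.243 to 0.847, counting error between these libraries only). It rests on control siRNA library A: the log2 ratio of mean CPM was -1.04 over all 4 libraries and -0.20 without it.

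Aldh4a1, which completes breakdown by turning P5C into glutamate, has no row under its name. RefSeq lists it as a gene of its own and also as a synonym of the neighbouring taste receptor gene Tas1r2. The Tas1r2 row of the deposited table, looked up after the values were known, spans 93147 bases at chr5:158042587-158135733, against RefSeq spans of 16139 bases for Tas1r2 and 25485 bases for Aldh4a1. That row had 26.4 and 26.6 CPM in Nr2f siRNA libraries, against 24.0 and 25.2 CPM in control siRNA libraries, and was not called (0.11 on the log2 scale, SE 0.10, adjusted p = 0.511). Which gene its reads come from cannot be told apart here, and no value is assigned to Aldh4a1.

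The other enzymes and carriers of proline were set beside the Aldh18a1 pair per length, in the authors' FPKM. Aldh18a1 had 0.174 and 0.175 FPKM in Nr2f siRNA libraries, against 2.75 and 3.52 FPKM in control siRNA libraries. AC096370.2 had 0.502 and 0.546 FPKM in Nr2f siRNA libraries, against 3.27 and 4.18 FPKM in control siRNA libraries. Among the reductases that follow, the mean level was 18.3 FPKM in Nr2f siRNA libraries and 23.3 FPKM in control siRNA libraries for Pycrl, the cytosolic enzyme that RefSeq names Pycr3, and for Pycr1 it was 4.49 FPKM in Nr2f siRNA libraries and 5.59 FPKM in control siRNA libraries. Pycr1 was thus the lower of these reductases in both groups.

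**Figure D3:**
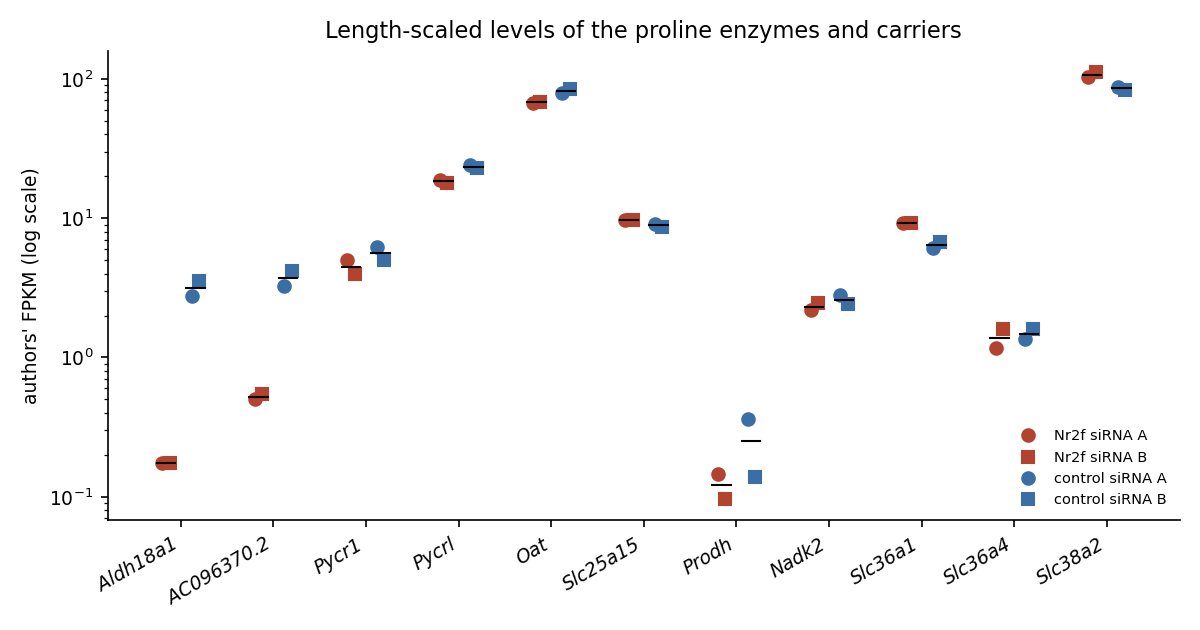
The authors' FPKM on a log axis for the proline enzymes and carriers, Nr2f siRNA libraries in red to the left of control siRNA libraries in blue, with lines at group means (n = 2 each). Of the genes plotted, Oat and Slc38a2 are the most abundant, and Aldh18a1 and AC096370.2 show the widest separation between groups.

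Among the other genes of proline metabolism 17 had a row and 12 were tested. Of these, 2 rose, 2 fell and 8 were not called, beside 8.05% of all tested genes called higher and 10.0% called lower. The median log2 fold change was 0.00, against 0.01 over all tested genes. The genes that rose move amino acids across membranes. Slc36a1, a proton-coupled carrier of proline and other small amino acids, had 28.7 and 29.0 CPM in Nr2f siRNA libraries against 19.0 and 21.0 CPM in control siRNA libraries (log2 fold change 0.53, SE 0.11, adjusted p = 0.0055). Slc38a2, the sodium-coupled carrier SNAT2, had 483.0 and 524.4 CPM in Nr2f siRNA libraries against 409.9 and 392.4 CPM in control siRNA libraries (0.33, SE 0.07, adjusted p = 0.0087; adjusted p = 0.12 without Nr2f siRNA B). Eprs, which charges transfer RNA with glutamate and with proline, fell to 366.8 and 371.0 CPM in Nr2f siRNA libraries, against 485.6 and 447.4 CPM in control siRNA libraries (-0.34, SE 0.07, adjusted p = 0.0069). Pycrl fell to 27.8 and 26.7 CPM in Nr2f siRNA libraries, against 35.3 and 33.8 CPM in control siRNA libraries (-0.35, SE 0.10, adjusted p = 0.0286), a call lost in each fit that left out 1 library (adjusted p 0.0525 to 0.183). Slc25a15, the mitochondrial ornithine carrier, was not called (log2 fold change 0.13, adjusted p = 0.394). The ornithine carrier had a mean of 9.67 FPKM in Nr2f siRNA libraries and 8.87 FPKM in control siRNA libraries. Prodh2, which oxidises hydroxyproline, had no read in any library.

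Glutamate and ornithine, from which P5C is made, have pathways of their own. Of 18 tested glutamate and glutamine genes 2 rose, 1 fell and 15 were not called (median log2 fold change 0.04). Over all tested genes 8.05% were called higher and 10.0% lower. Glul, glutamine synthetase, had 102.7 and 97.0 CPM in Nr2f siRNA libraries against 65.2 and 75.2 CPM in control siRNA libraries (0.51, SE 0.09, adjusted p = 0.0022). Gclc, the catalytic subunit that begins glutathione synthesis from glutamate, fell to 37.7 and 34.3 CPM in Nr2f siRNA libraries, against 50.9 and 48.4 CPM in control siRNA libraries (-0.47, SE 0.10, adjusted p = 0.0050). The Gclc call was lost without Nr2f siRNA B (adjusted p = 0.0561). The third called gene, Abat, which breaks down GABA, had a log2 fold change of 0.32, adjusted p = 0.0355. Its call was lost without Nr2f siRNA A, Nr2f siRNA B or control siRNA B (adjusted p 0.124 to 0.186).

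Of 17 tested arginine, ornithine and polyamine genes 3 rose, 1 fell and 13 were not called (median 0.09). The shares called over all tested genes were 8.05% higher and 10.0% lower. Sat1 and Smox, which acetylate and oxidise polyamines, were called higher, whereas the polyamine oxidase Paox was not called (log2 fold change 0.16, adjusted p = 0.351). Sat1, the spermidine and spermine acetyltransferase, had 8.39 and 8.08 CPM in Nr2f siRNA libraries against 3.55 and 4.55 CPM in control siRNA libraries (1.03, SE 0.20, adjusted p = 0.0032). Smox, spermine oxidase, averaged 4.48 FPKM in Nr2f siRNA libraries and 2.79 FPKM in control siRNA libraries (0.69, SE 0.15, adjusted p = 0.0080). Azin1, which protects ornithine decarboxylase from its antizyme, had a log2 fold change of 0.27 (adjusted p = 0.0284). Sms, spermine synthase, had one of -0.43 (adjusted p = 0.0346). The decarboxylase gene itself, Odc1, had 107.2 and 105.7 CPM in Nr2f siRNA libraries against 122.9 and 127.1 CPM in control siRNA libraries. Odc1 was not called by edgeR (-0.23, adjusted p = 0.0542), and DESeq2 called it lower. The Sms call was lost with DESeq2 (adjusted p = 0.0765) and with library-size scaling (0.0604). Without Nr2f siRNA B the calls of Smox (adjusted p = 0.0518), Azin1 (0.262) and Sms (0.218) were lost; Azin1 was also lost without control siRNA B (0.127), and Sms without any 1 library (0.0799 to 0.218).

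Genes of serine, glycine and one-carbon synthesis with ATF4, a transcription factor of the amino acid response known to act on many of them, were counted as well. Of 16 tested, 9 fell and 7 were not called, beside 10.0% of all tested genes called lower; none was called higher by edgeR at the adjusted p, 1 was higher at an unadjusted p under 0.05, and DESeq2 called 0 higher and 8 lower. The list's median log2 fold change was -0.38. Psat1, of serine synthesis, was the 1 higher at the unadjusted p (0.18). The others not called were Ddit3 (0.02), Sesn2 (-0.03), Shmt1 (-0.10), Psph (-0.29), Aldh1l2 (-0.44) and Trib3 (-0.60). Atf4 fell to 195.1 and 195.5 CPM in Nr2f siRNA libraries, against 249.4 and 248.1 CPM in control siRNA libraries (-0.35, SE 0.07, adjusted p = 0.0052). Shmt2, the mitochondrial enzyme that makes glycine from serine, fell to 102.5 and 95.1 CPM in Nr2f siRNA libraries, against 134.2 and 128.1 CPM in control siRNA libraries (-0.41, SE 0.08, adjusted p = 0.0039). The stress-induced transcription factor Atf5 (-0.48), the folate enzymes Mthfd1 (-0.43) and Mthfd2 (-0.44) and the glutathione-degrading Chac1 (-0.83, SE 0.18) also fell, as did Phgdh (-0.28), Mthfd1l (-0.27) and Mthfd2l (-0.74). The count of 9 was 3 without Nr2f siRNA B and 5 without control siRNA A, and 3 of the 9 were called in every fit that left out 1 library. How far these shifts and that of Aldh18a1 are linked was not tested.

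Genes downstream of proline supply and relatives of Aldh18a1 by name were not called by edgeR, beside 18.1% of all tested genes called in either direction. Of 9 tested collagen prolyl hydroxylases and partners, edgeR called 0 at the adjusted p; 2 were lower at an unadjusted p under 0.05, and DESeq2 called 1, P3h4, lower. Their median was -0.06. The most abundant, P4hb, the shared subunit of the 4-hydroxylases, had 1830 and 1841 CPM in Nr2f siRNA libraries against 2017 and 1994 CPM in control siRNA libraries (log2 fold change -0.13, adjusted p = 0.21), and the peptidyl-prolyl isomerase Ppib had a log2 fold change of 0.13 (adjusted p = 0.302). Of 12 other tested aldehyde dehydrogenases edgeR called 0 at the adjusted p, 1 was lower at an unadjusted p under 0.05 and DESeq2 called 0. The 1 lower was Aldh3a1, with 3 and 6 reads in Nr2f siRNA libraries against 14 and 9 reads in control siRNA libraries. Its groups did not overlap in CPM, on few reads (log2 fold change -1.89, SE 0.73, edgeR adjusted p = 0.0952). Aldh2, which oxidises acetaldehyde, had 141.7 and 128.9 CPM in Nr2f siRNA libraries against 115.2 and 131.1 CPM in control siRNA libraries, and Aldh7a1, of lysine breakdown, had 109.4 and 101.1 CPM in Nr2f siRNA libraries against 107.5 and 119.0 CPM in control siRNA libraries; the groups overlapped for both.

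**Figure D4:**
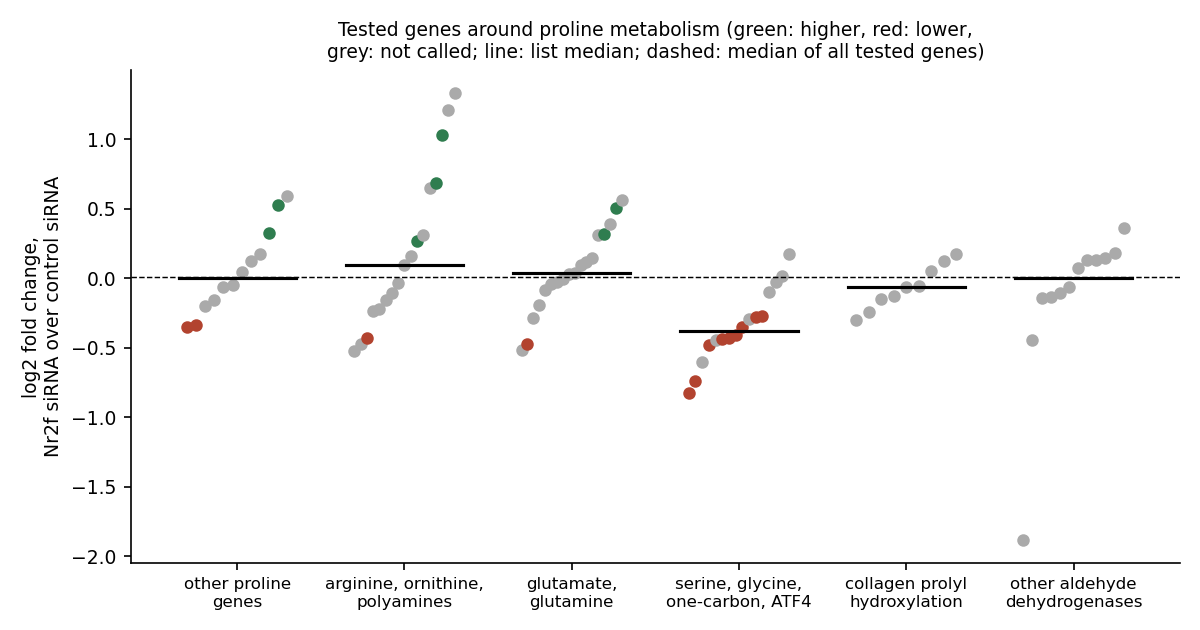
Each point is the log2 fold change, Nr2f siRNA over control siRNA, of 1 tested gene in 6 lists around proline metabolism; green points were called higher, red ones lower and grey ones not called. Black lines are list medians and the dashed line is the median of all tested genes; the serine, glycine, one-carbon and ATF4 list has the lowest median, -0.38.

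Among the 13 nearest tested neighbours of the copies, 5 fell and 8 were not called, beside 10.0% of all tested genes called lower. Entpd1, an enzyme of extracellular ATP breakdown, is the nearest tested gene after AC096370.2. Its reads numbered 3 and 17 in Nr2f siRNA libraries, against 43 and 35 in control siRNA libraries (-2.52, SE 0.49, adjusted p = 0.0039). AABR07072054.1 had 2 and 3 reads in Nr2f siRNA libraries, against 22 and 20 reads in control siRNA libraries (-3.56, SE 0.69, adjusted p = 0.0035; DESeq2 gave it no adjusted p). AABR07006774.1 had 3 and 7 reads in Nr2f siRNA libraries, against 49 and 23 reads in control siRNA libraries (-3.37). These are low counts, and the annotation of AABR07006774.1 overlaps Hells and LOC100911865 on the same strand, neither of which was called. Hells had 8 and 28 reads in Nr2f siRNA libraries, against 65 and 15 reads in control siRNA libraries, with no overlap in CPM (-1.71, SE 0.62, adjusted p = 0.096). LOC100911865 had a log2 fold change of -0.17, and LOC100911660, which overlaps both of these but not AABR07006774.1, had one of -0.19 and was not called.

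LOC100912537, adjacent to Aldh18a1, had 50 and 19 reads in Nr2f siRNA libraries, against 113 and 88 reads in control siRNA libraries (-2.08, SE 0.50, adjusted p = 0.0318). That call was lost without control siRNA A (adjusted p = 0.203), without control siRNA B (0.158) and with edgeR's earlier quasi-likelihood method (0.169). AC096370.3, next to the near copy and with the same annotated length as LOC100912537, 1785 bases, had no read. Between the copies lies Pdlim1, an actin-linked adaptor, which fell to 78.5 and 79.8 CPM in Nr2f siRNA libraries, against 99.4 and 97.7 CPM in control siRNA libraries (-0.32, adjusted p = 0.0152), a call lost without Nr2f siRNA A, Nr2f siRNA B or control siRNA A (adjusted p 0.0576 to 0.0844). The neighbours outside the copies that were not called included Cyp2c11 (-0.86), Zfp518a (0.39), Tm9sf3 (0.14) and LOC100909771 (0.71).

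**Figure D5:**
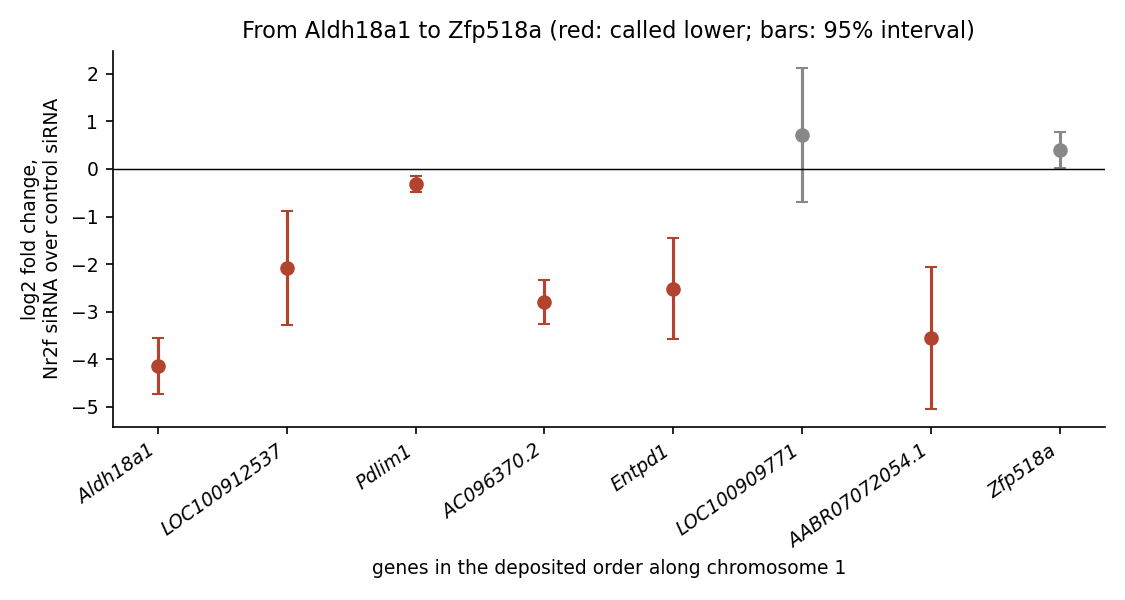
Log2 fold change, Nr2f siRNA over control siRNA, with 95% intervals for 8 tested genes from Aldh18a1 to Zfp518a in the deposited order along chromosome 1; red points were called lower and grey ones not called. Both copies, LOC100912537, Entpd1 and AABR07072054.1 lie below -2, whereas Pdlim1, between the copies and also called lower, lies near 0.

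The tested genes whose pattern over the 4 libraries was most like that of Aldh18a1, by Euclidean distance between log2(CPM + 0.5) values centred on the control mean, were Tktl1 (distance 0.640), Timm17b (0.709), Rmnd5b (0.870), Nfs1 (1.05) and AC096370.2 (1.19). Tktl1 encodes a transketolase-like protein, Timm17b a subunit of the mitochondrial protein import machinery, and Nfs1 an enzyme that supplies sulfur for iron-sulfur clusters. Timm17b had 0.421 and 0.411 CPM in Nr2f siRNA libraries, against 8.04 and 16.8 CPM in control siRNA libraries. Tktl1 had 0.153 and 0.571 CPM in Nr2f siRNA libraries, against 5.91 and 7.26 CPM in control siRNA libraries. All were near 1 CPM or below it in at least 1 Nr2f siRNA library and above 5 CPM in both control siRNA libraries, apart from the near copy, which had 1.72 CPM at its lowest. Rmnd5b also has a second row under the same name, which received no read.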

How the data were processed

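Polyadenylated RNA of 4 S16 libraries was sequenced, and groups were taken from the labels. The deposited whole-number read counts per Ensembl gene come from a workflow for which the submitters' processing notes list HISAT2, featureCounts (1.5.0-p3) and DESeq2 (1.20.0). The role of each tool, the genome build, the annotation release and the strand setting were not given in the sources used here. The authors' deposited FPKM values are scaled by gene length and depth. The authors' deposited table of 17633 genes gives log2 fold changes, which are copied where named. The p-values and adjusted p-values in it come from the authors' own test and are not reported, and its 2 mean columns and 8 other per-sample columns were not used. Library names A and B follow the column order, since the columns name the group but not which replicate.

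The counts were fitted with edgeR 4.0.16 in R 4.3.3 (filterByExpr, TMM, robust quasi-likelihood test, Benjamini-Hochberg, threshold 0.05) over 13018 genes, and the method was tested on simulated data. Genes outside the member set were named by a rule: up to 6 called genes per list with the smallest adjusted p, or the 2 most abundant tested where fewer than 2 were called; 5 tested neighbours on each side of each copy; and the 5 genes most like Aldh18a1. Other genes named, such as the remaining called serine genes, the uncalled proline genes and AC096370.3, were chosen after their values were seen. The members and the 11 lists were chosen with earlier results of these data known. A few genes, Aldh5a1, Aldh1l1 and Aldh1l2, stand in more than one list. Alternatives were library-size and upper-quartile scaling, DESeq2 1.42.0, no filter or 1 CPM in 2 libraries, thinning to the shallowest library, leaving out each library, and edgeR's earlier quasi-likelihood method. Promoter and microRNA sequences are from RefSeq (GRCr8). A few results on single genes are not reported here.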

Additional observations from a re-analysis of the deposited data

How the results depend on the processing

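Of 222 values recomputed under an alternative, 189 kept their direction and call or stayed within 1.5 times of the count. Another 5 were weaker, all of them Oat, and 28 moved, all of them counts of genes apart from Prodh without control siRNA A. No fold change turned direction. The balance of called genes did turn, from 1048 higher and 1302 lower in the main fit. It was 1381 higher and 1012 lower with library-size scaling, and 1264 higher and 1107 lower with upper-quartile scaling. Some of the 189 could not change, such as the Prodh ratio under the earlier quasi-likelihood method (-1.04 in both). Oat lost its call at -0.21 with library-size scaling and -0.23 with upper-quartile scaling; leaving out 1 library gave -0.32 to -0.21. The same fits gave -4.32 to -3.96 for Aldh18a1, -2.98 to -2.62 for AC096370.2 and -3.46 to -3.10 for their sum. Leaving out 1 library, genes called higher ranged from 601 to 787 and lower from 736 to 1095, with the lowest counts of both without Nr2f siRNA B. In those fits the counts of other proline genes ranged from 1 to 2 higher and from 1 to 1 lower, of collagen prolyl hydroxylation genes from 0 to 2 lower, of ornithine and polyamine genes from 1 to 4 higher and 0 to 0 lower, of glutamate genes from 1 to 2 higher and 0 to 1 lower, and of serine and one-carbon genes from 3 to 7 lower. Library-size scaling gave 1 other proline gene lower, 0 ornithine and polyamine genes lower and 1 serine and one-carbon gene higher. DESeq2 gave 1 collagen prolyl hydroxylation gene lower and 1 glutamate gene higher. The earlier edgeR quasi-likelihood method, an alternative chosen after seeing the data, gave 1 collagen prolyl hydroxylation gene lower and 2 ornithine and polyamine genes lower. Where an alternative keeps all 4 libraries the cause was not tested; a fit without 1 library has fewer samples. No paired analysis was possible because the columns carry the numbers 3 and 2 for Nr2f siRNA and 3 and 1 for control siRNA, which share only 1 number and do not match the replicate numbers of the titles, so the replicate block was not run. Prodh and several neighbours rest on few reads and on 2 libraries per group.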
